A study of Mus musculus with 16 samples.

Results

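The mitochondrial genome encodes 6 proteins of respiratory complexes III, IV and V, and their RNA levels are described here in haematopoietic stem cells (HSCs) of the mouse bone marrow (BM). The genes were mt-Cytb (complex III), mt-Co1, mt-Co2 and mt-Co3 (complex IV) and mt-Atp6 and mt-Atp8 (complex V), 6 of the 46078 genes in the count table. They were selected on values of these libraries: the level of mt-Co1 in 2 of the comparisons was known when the set was chosen. For WT endosteal against WT central HSCs and for central HSCs of both genotypes, the 6 genes are therefore described without a test. The other comparisons each share a group with these, so their p-values for the 6 genes are not independent of the choice.

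RNA-Seq was performed on pools of 30 sorted LSK CD48-CD150+ cells, a gate that enriches for HSCs, from C57/Bl6 mice without any treatment. Oligo-dT primed cDNA was amplified by PCR. The pools came from endosteal BM, the fraction that stays attached to the bone, or from central BM, the marrow inside the shaft. WT mice gave 4 endosteal and 4 central libraries. Mice labelled Gfra2-/- lack the receptor GFRα2, on which the survival of cholinergic neurons depends, in all tissues; they gave 4 endosteal and 4 central samples in the labels, of which 3 central libraries are used and 1 is not analysed here. The study calls the libraries biological replicates, but the labels do not say which pools came from separate animals, so p-values measure the spread between these libraries, which may be partly technical. Libraries are named A to D within each group, and the letters follow the order of the columns and were not used to pair libraries across groups. Age was not given in the sources used here. In such pools, fewer cells of a type and less RNA per cell cannot be told apart.

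The libraries held between 826487 and 18550008 counts on genes. All 4 WT central libraries were the shallowest, with 826487 to 3367289 counts, whereas the other 11 held 4416648 or more. Depth and group thus cannot be told apart in any comparison with WT central HSCs. The share of gene counts that fell on the mitochondrial chromosome ranged from 3.24% to 8.24%. Gfra2 itself was almost silent in WT HSCs, with 0 to 4 counts per library, so its counts cannot check the knockout. Among the libraries labelled Gfra2-/-, endosteal library B held 47 Gfra2 counts and endosteal library D held 9, in raw counts more than any WT library. These 2 held 18550008 and 11985523 counts on genes, whereas the 4 Gfra2 counts of WT central library C fell in 826487. Relative to depth, neither thus exceeded WT central library C. They are named below as libraries whose Gfra2 counts go against the label, a rule on raw counts alone. The counts do not say which exons they came from. Every direction below that involves libraries labelled Gfra2-/- from endosteal BM rests in part on these 2 libraries.

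All 8 HSC markers, among them Kit, Hlf and Mecom, had counts in each of the 15 libraries, and Kit had a median of 685 CPM (a gene's counts relative to the counts of the whole library, scaled by TMM over all libraries). T-cell markers summed to at most 0.486 CPM in 14 libraries and to 36.4 CPM in Gfra2-/- central library B, and the stromal and endothelial markers reached 19.9 CPM at most, with Cdh5 at 0 throughout. B-cell markers (5 genes) summed to 1930 CPM in the endosteal library D labelled Gfra2-/- and to 8.99 to 324 CPM elsewhere. In the same library the erythroid markers summed to 647 CPM, against 107 CPM at most in the others. Myeloid markers (6 genes) had summed levels of 319 CPM or more in every library. They were highest in WT central libraries C and D, with summed levels of 2448 and 2218 CPM. By its median, 446 CPM, Lyz2 was the most abundant of them, though it did not lead in WT central library D. The medians of the other myeloid markers were 0.903 CPM or less, so the sums rest mostly on Lyz2 in most libraries. Megakaryocyte markers summed to between 45.04 and 580 CPM, the highest in the endosteal library A labelled Gfra2-/-, and Itga2b led that list by its median. The part of such cells in the results was not tested.

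Mitochondrial DNA is transcribed into long polycistronic RNAs, which are cut at the intervening transfer RNAs to release ribosomal RNAs and mRNAs. Cytochrome b, the product of mt-Cytb, is the only mitochondrially encoded subunit of complex III, which passes electrons from ubiquinol to cytochrome c. COX1, COX2 and COX3 form the core of cytochrome c oxidase (complex IV), which reduces oxygen, and COX1 holds its catalytic centre. ATP6 and ATP8 belong to the membrane part of ATP synthase (complex V), in which ATP6 forms the proton path. HSCs in the BM are known for low mitochondrial activity and for drawing much of their energy from glycolysis.

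All 6 genes lie on the plus strand of the mitochondrial chromosome (GRCm38): mt-Co1 at chrM:5328-6872, mt-Co2 at chrM:7013-7696, mt-Atp8 at chrM:7766-7969, mt-Atp6 at chrM:7927-8607, mt-Co3 at chrM:8607-9390 and mt-Cytb at chrM:14145-15288. Each consists of a single exon. The reading frames of mt-Atp8 and mt-Atp6 overlap by 43 bases, and a read in the overlap could not be assigned to either gene. The sequences at this overlap are shown because it removes part of an already short gene; capitals mark the shared bases (GENCODE M21, GRCm38, 5′ to 3′).

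end of mt-Atp8 (chrM:7915-7969, plus strand): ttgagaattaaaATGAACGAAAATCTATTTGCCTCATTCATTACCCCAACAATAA
start of mt-Atp6 (chrM:7927-7981, plus strand): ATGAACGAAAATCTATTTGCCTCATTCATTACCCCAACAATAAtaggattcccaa

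The nuclear genome carries copies of mitochondrial DNA, and a read that matches both could not be placed with a single path. The reads were 50 bases long and the alignment kept reads with a single path, so every 50-base window of the mitochondrial genes was searched, on both strands, in 129366 annotated transcripts of the other genes in the count table. A block of 7 pseudogenes on the minus strand of chromosome 1 (chr1:24611535-24616197, 4663 bases) repeated mitochondrial genes in their mitochondrial order. All 635 windows of mt-Co2 had an exact nuclear copy, 632 of them in Gm28661. For mt-Atp6 it was 629 of 632 windows, in Gm10925, and for mt-Co3 734 of 735, in Gm28437. In mt-Co1, 765 of 1496 windows (51.1%) had a copy, mainly in Gm29216 on chromosome 1 (430 windows) and Gm13340 on chromosome 2 (411 windows), and 5 in Gm11512 on chromosome 11. Gm13341 on chromosome 2 repeated 224 windows of mt-Co2.

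No window of mt-Cytb or mt-Atp8 had a copy in these transcripts. The bases that would match mt-Atp8 lie between annotated genes: Gm28661 and Gm10925 are 233 bases apart, and mt-Co2 and mt-Atp6 are 230 bases apart. That stretch was not searched.

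The sequences that follow show what a read of 50 bases could and could not tell apart. The first bases of mt-Co2 are identical in its copy Gm28661. A stretch of mt-Co1 (bases 671 to 720, counted from 1 at its first base) differs from Gm13340 at 4 positions, G696A, T699C, G717A and C720T, which are in capitals. The first bases of mt-Cytb had no copy.

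mt-Co2 (chrM:7013-7062, plus strand): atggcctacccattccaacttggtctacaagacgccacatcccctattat
Gm28661 (chr1:24615516-24615565, minus strand): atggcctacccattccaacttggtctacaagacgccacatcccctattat
mt-Co1 (chrM:5998-6047, plus strand): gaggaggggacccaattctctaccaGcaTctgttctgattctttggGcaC
Gm13340 (chr2:22588928-22588977, minus strand): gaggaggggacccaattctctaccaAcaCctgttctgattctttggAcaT
mt-Cytb (chrM:14145-14194, plus strand): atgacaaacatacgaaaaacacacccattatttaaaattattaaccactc

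Over their whole 1545 bases, mt-Co1 and Gm13340 differed at 37 positions, an identity of 97.6%. The 430 windows shared with Gm29216 lie at the 3′ end of mt-Co1, from window 1067 to window 1496.

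The levels of the 6 genes fell into 2 classes. Per kb of transcript, mt-Cytb had a median level over the 15 libraries of 5422 CPM per kb and mt-Co1 of 3057 CPM per kb. The other 4 were lower by orders of magnitude: mt-Atp6 had 42.2, mt-Co3 23.4, mt-Co2 17.5 and mt-Atp8 9.42 CPM per kb. In raw counts, mt-Co1 ranged from 1094 to 137679 per library and mt-Cytb from 3663 to 108970, whereas mt-Co2 ranged from 11 to 227, mt-Co3 from 48 to 290, mt-Atp6 from 45 to 460 and mt-Atp8 from 1 to 49. The low class thus had few counts, and its ratios carry large errors.

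Most of the low genes were those with copies. Of the 13 mitochondrial protein-coding genes, 5 had exact copies of 98.0% or more of their windows (mt-Co2, mt-Co3, mt-Atp6 and the complex I genes mt-Nd3 and mt-Nd4l). Their median levels lay between 2.09 and 42.2 CPM per kb. Of the 8 others, mt-Atp8 had 9.42 CPM per kb without an annotated copy, and 7 had 1183 CPM per kb or more. The part of the copies in these levels was not tested. If only windows without a copy and without another mitochondrial gene are counted as length, the median level of mt-Co1 was 6462 CPM per kb over 731 windows and that of mt-Cytb 5665 over 1095 windows, so that their order was turned. For mt-Co2, mt-Co3 and mt-Atp6 hardly any window was free of a copy, so their levels cannot be read as the abundance of the mRNA. In mt-Atp8, 112 of 155 windows were free of a copy in annotated transcripts and of another mitochondrial gene. That search left out the stretch between Gm28661 and Gm10925, so the level of mt-Atp8 cannot be read that way with confidence either.

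**Figure D1:**
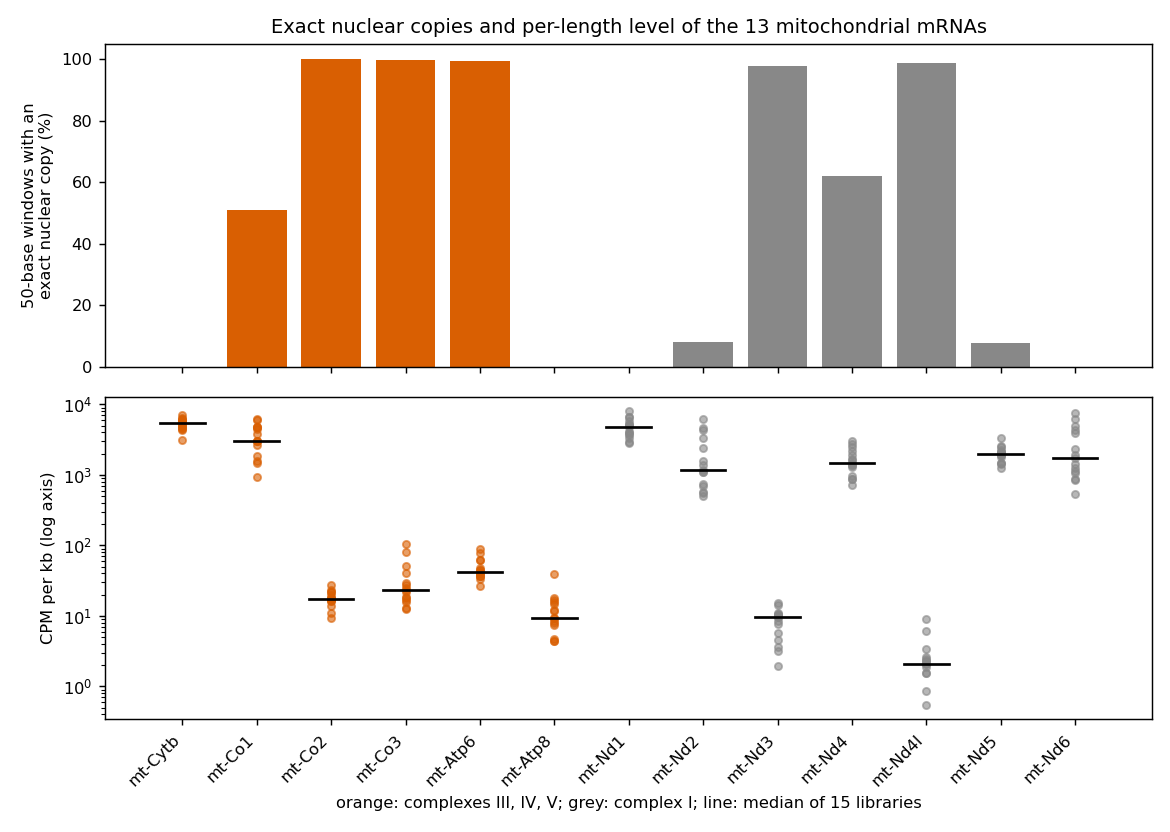
The upper panel shows, for each of the 13 mitochondrial protein-coding genes, the share of 50-base windows with an exact copy in an annotated nuclear transcript (%). The lower panel shows the level in each of 15 libraries (points, CPM per kb, log axis) with the median as a line. The genes of complexes III, IV and V are in orange and those of complex I in grey; mt-Co2, mt-Co3 and mt-Atp6 combine copies of 99.5% or more with medians of 42.2 CPM per kb or less, and mt-Atp8 is low without an annotated copy.

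The copies themselves collected counts of the same order as their low sources. Gm28661 held 10 to 215 counts per library beside the 11 to 227 of mt-Co2, Gm10925 held 113 to 535 beside the 45 to 460 of mt-Atp6, and Gm28437 held 47 to 528 beside the 48 to 290 of mt-Co3. The copies of mt-Co1 held far fewer counts than mt-Co1: Gm29216 had 62 to 379, Gm13340 11 to 416 and Gm11512 5 to 103. Counts that fell on a mitochondrial gene and on its identical copy cannot be separated with confidence.

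The level of mt-Co1 set WT central HSCs apart from every other group. In WT central HSCs it was 2424, 2832, 1463 and 2272 CPM in libraries A to D (2247 ± 574, SD, n = 4). WT endosteal libraries A to D had 4097, 5907, 7285 and 4715 CPM (5501 ± 1407, n = 4). All 4 WT endosteal libraries were above all 4 WT central ones.

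In libraries labelled Gfra2-/- the level of mt-Co1 overlapped between the compartments. The central libraries A to C had 6816, 7476 and 4710 CPM (6334 ± 1445, n = 3), and the endosteal libraries A to D had 9289, 4723, 7427 and 9526 CPM (7741 ± 2220, n = 4). Both groups also overlapped with WT endosteal HSCs, and both were above all WT central libraries. The order of the means was WT central, WT endosteal, central labelled Gfra2-/- and endosteal labelled Gfra2-/-, and the neighbours in this order overlapped except at its first step.

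**Figure D2:**
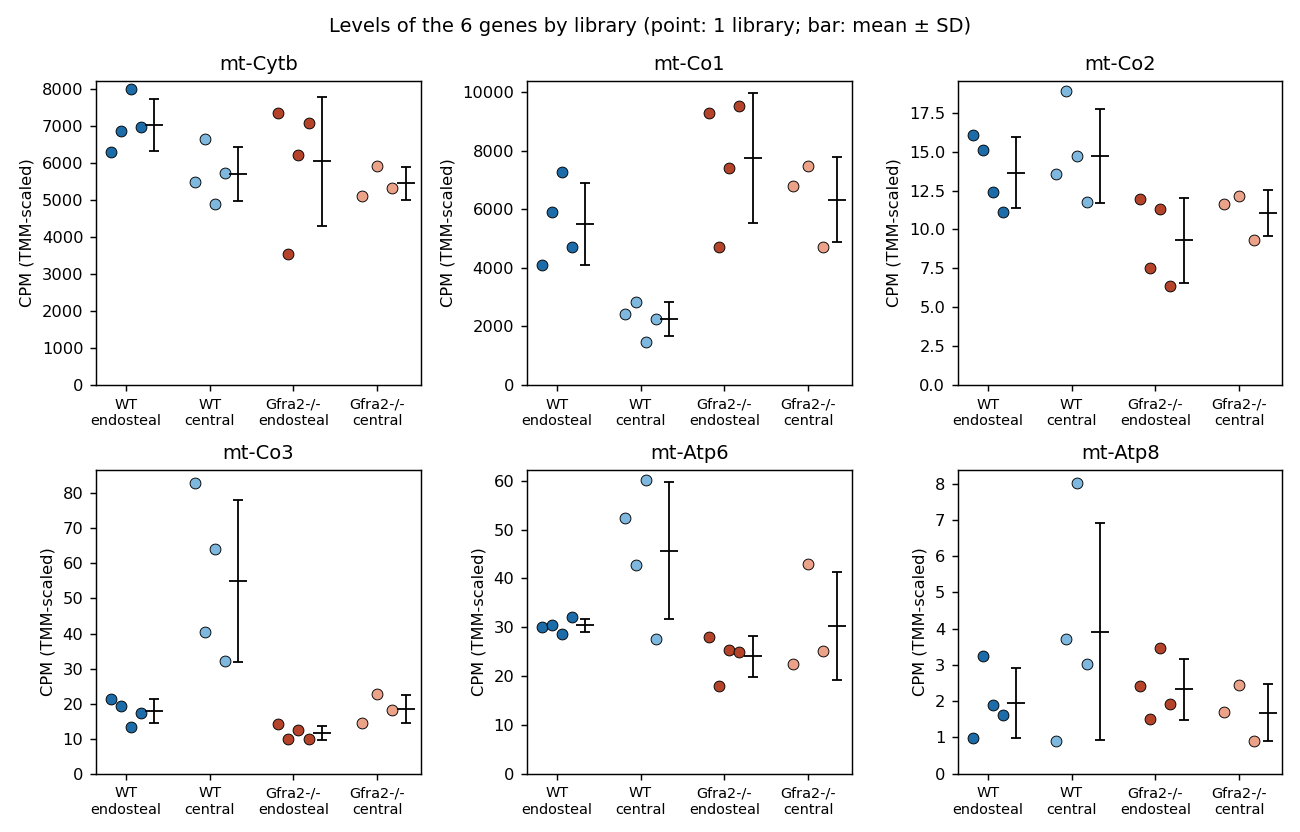
Level of each of the 6 genes (y axis, TMM-scaled CPM, linear axis from 0) in the 4 groups (x axis); each point is 1 library and the black bar is the mean ± SD of 3 or 4 libraries. The 4 WT central libraries have the 4 lowest mt-Co1 values, 1463 to 2832 CPM, and the 4 highest mt-Co3 values, 32.3 to 83.1 CPM, while the mt-Cytb ranges of WT endosteal and WT central libraries overlap.

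The fitted difference of mt-Co1 between WT endosteal and WT central HSCs was a log2 fold change of 1.27 ± 0.23 (SE). Groups that do not overlap were found for 6.36% of the 11181 genes tested in this comparison, and this share is given as background only, since the gene was known for it. Between central HSCs labelled Gfra2-/- and WT central HSCs the log2 fold change was 1.47 ± 0.23 and the groups were again apart, as for 12.4% of 11772 genes. The edgeR quasi-likelihood test with Benjamini-Hochberg adjustment called 6 genes there at an FDR of 0.1 (0.051%), and 0 genes (0%) between the WT compartments, where 882 genes (7.89%) had an unadjusted p below 0.05 and DESeq2 called 216 (1.93%). In the central comparison 1028 genes (8.73%) had such a p, and DESeq2 called 371 (3.15%). This count rested on single libraries: 0 genes were called without WT central library A, B, C or D or without the central library A labelled Gfra2-/-, 1 gene without library B of that label and 8 genes without library C. Both comparisons share the WT central libraries, so the 2 fold changes are not independent of each other.

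After all libraries were thinned to the depth of the shallowest one, the log2 fold change of mt-Co1 was 1.21 between the WT compartments and 1.43 between the central groups. Scaling by the spike-in RNAs moved the median of all genes to 1.58 and 1.75 in these comparisons, and mt-Co1 lay 1.06 and 1.14 above that median. Within the libraries with a spike-in share of at least 0.5%, the values were 1.30 and 1.62. The 1 library of each group below that share, the last of its group in column order, gave differences in log2(CPM + 1) of 1.05 and 1.05, without replicates.

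Each of the other comparisons of 2 groups reused a group whose mt-Co1 level was known at the choice. This was WT endosteal HSCs or central HSCs labelled Gfra2-/-. The p-values there are therefore not independent of the choice, and mt-Co1 did not pass. Between endosteal HSCs labelled Gfra2-/- and WT endosteal HSCs its log2 fold change was 0.50 ± 0.25 (edgeR adjusted p = 0.75), and between the endosteal and central libraries labelled Gfra2-/- it was 0.29 ± 0.26 (edgeR adjusted p = 0.999), and 0.013 among libraries with a spike-in share of at least 0.5%. The 1 library of each group below that share gave differences in log2(CPM + 1) of 1.015 between the endosteal groups and 1.016 between the Gfra2-/- compartments, without replicates. The difference of the compartment effects of the 2 genotypes, which holds the WT difference known at the choice and is a description only, was -1.001 ± 0.36 on the log2 scale. No gene of the whole table passed in these fits (0% of 12970, 13860 and 15416 genes tested), although DESeq2 called 132 genes (1.02%) in the first, 156 (1.13%) in the second and 172 in the third, and 868 (6.69%), 664 (4.79%) and 1075 had an unadjusted p below 0.05 in edgeR. Without the endosteal library D labelled Gfra2-/-, which carried the B-cell and erythroid markers, mt-Co1 differed from WT endosteal HSCs by 0.37, and without both libraries whose Gfra2 counts go against the label by 0.60.

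The levels of mt-Cytb lay closer together. Libraries A to D had 6293, 6864, 7985 and 6971 CPM in WT endosteal HSCs (7028 ± 704, n = 4) and 5488, 6649, 4898 and 5724 CPM in WT central HSCs (5690 ± 728, n = 4). The endosteal libraries labelled Gfra2-/- had 7352, 3530, 6203 and 7074 CPM (6040 ± 1743, n = 4), and the central ones 5091, 5925 and 5308 CPM (5441 ± 433, n = 3). Library B of the endosteal group was the lowest of all 15. The groups overlapped in each of the 4 comparisons.

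The log2 fold change of mt-Cytb was 0.28 ± 0.15 between the WT compartments and -0.09 ± 0.15 between the central groups. It was -0.21 ± 0.22 between the endosteal groups (edgeR adjusted p = 0.895), and -0.04 without library B, and 0.15 ± 0.24 between the compartments in libraries labelled Gfra2-/- (edgeR adjusted p = 0.999). Between the central groups the sign turned, to 0.06, when 10 counts were required in every library.

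The ratio of mt-Co1 to mt-Cytb counts needs no scaling between libraries and showed the same order as the level of mt-Co1. It was 0.442, 0.426, 0.299 and 0.397 in WT central libraries A to D, and 0.651, 0.860, 0.912 and 0.676 in the WT endosteal ones. In libraries labelled Gfra2-/- it was 1.26, 1.34, 1.20 and 1.35 in endosteal HSCs and 1.34, 1.26 and 0.887 in central HSCs. The WT central, WT endosteal and endosteal Gfra2-/- groups did not overlap with each other, and the lowest central Gfra2-/- library, C, fell within the WT endosteal range.

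Of complex IV, mt-Co3 was highest where mt-Co1 was lowest, in WT central HSCs. WT central libraries A to D had 83.1, 40.3, 64.2 and 32.3 CPM (55.0 ± 23.1, n = 4), and WT endosteal ones 21.4, 19.3, 13.3 and 17.3 CPM (17.8 ± 3.43, n = 4). The central libraries labelled Gfra2-/- had 14.6, 22.6 and 18.3 CPM (18.5 ± 4.03, n = 3), and the endosteal ones 14.1, 10.02, 12.3 and 9.87 CPM (11.6 ± 2.02, n = 4). All WT central libraries were above all others, and all endosteal libraries labelled Gfra2-/- were below the central ones with that label.

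Fitted log2 fold changes of mt-Co3 were -1.64 ± 0.70 between the WT compartments and -1.59 ± 0.77 between the central groups. They were -0.68 ± 0.73 between the compartments in libraries labelled Gfra2-/- (edgeR adjusted p = 0.999), where groups without overlap made up 7.34% of all genes, and -0.62 ± 0.70 between the endosteal groups (edgeR adjusted p = 0.901). Its counts in WT central libraries were 92, 130, 48 and 96, and 734 of its 735 windows have a copy, so these values describe few reads. With spike-in scaling the raw signs in the comparisons with WT central HSCs turned, to 0.35 and 0.61, and mt-Co3 lay 1.23 and 1.14 below the median of all genes.

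The copy Gm28437 was also highest in WT central HSCs, with 49.4 to 83.1 CPM in WT central, 27.2 to 42.0 in WT endosteal, 22.5 to 35.5 in central Gfra2-/- and 12.3 to 27.4 in endosteal Gfra2-/- libraries. Its log2 fold change between the WT compartments was -1.02 ± 0.58 (edgeR adjusted p = 0.683). The copy Gm29216 of mt-Co1 did not follow its source: it had 45.04 to 82.9 CPM in WT central and 22.8 to 41.6 CPM in WT endosteal HSCs, with a log2 fold change of -1.23 ± 0.60 (edgeR adjusted p = 0.637), whereas Gm13340 was at -0.02 ± 0.79 (edgeR adjusted p = 0.999). Gm11512 was also lower in WT endosteal HSCs, with 6.51 to 7.59 CPM against 14.7 to 31.9 CPM and a log2 fold change of -1.72 ± 0.89 (edgeR adjusted p = 0.641). None of the 7 copies of the 6 genes passed the test in any of the 4 comparisons.

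The levels of mt-Co2, the subunit that receives electrons from cytochrome c, overlapped between WT compartments, with 11.1 to 16.04 CPM in endosteal and 11.8 to 18.9 CPM in central HSCs. They were 6.38 to 11.9 CPM in endosteal and 9.35 to 12.2 CPM in central libraries labelled Gfra2-/-. Its log2 fold changes lay between -0.13 ± 0.87 (WT compartments) and -0.55 ± 0.77 (endosteal groups, edgeR adjusted p = 0.922). With standard errors of this size, a difference was not detectable at these counts.

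Of complex V, mt-Atp6 had 28.7 to 32.1 CPM in WT endosteal and 27.6 to 60.2 CPM in WT central HSCs. In libraries labelled Gfra2-/- it had 18.02 to 28.0 CPM in endosteal and 22.6 to 42.9 CPM in central HSCs. The endosteal groups did not overlap, as for 6.24% of the genes in that comparison, with a log2 fold change of -0.33 ± 0.54 (edgeR adjusted p = 0.94). The levels of mt-Atp8 lay between 0.897 and 8.02 CPM over all libraries, with fitted values of -0.98 ± 0.96 between the WT compartments and -1.21 ± 1.23 between the central groups. Between the compartments in libraries labelled Gfra2-/- the value was positive, at 0.46 ± 0.98 (edgeR adjusted p = 0.999). Between the endosteal groups it was also positive, at 0.25 ± 0.80 (edgeR adjusted p = 0.973).

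**Figure D3:**
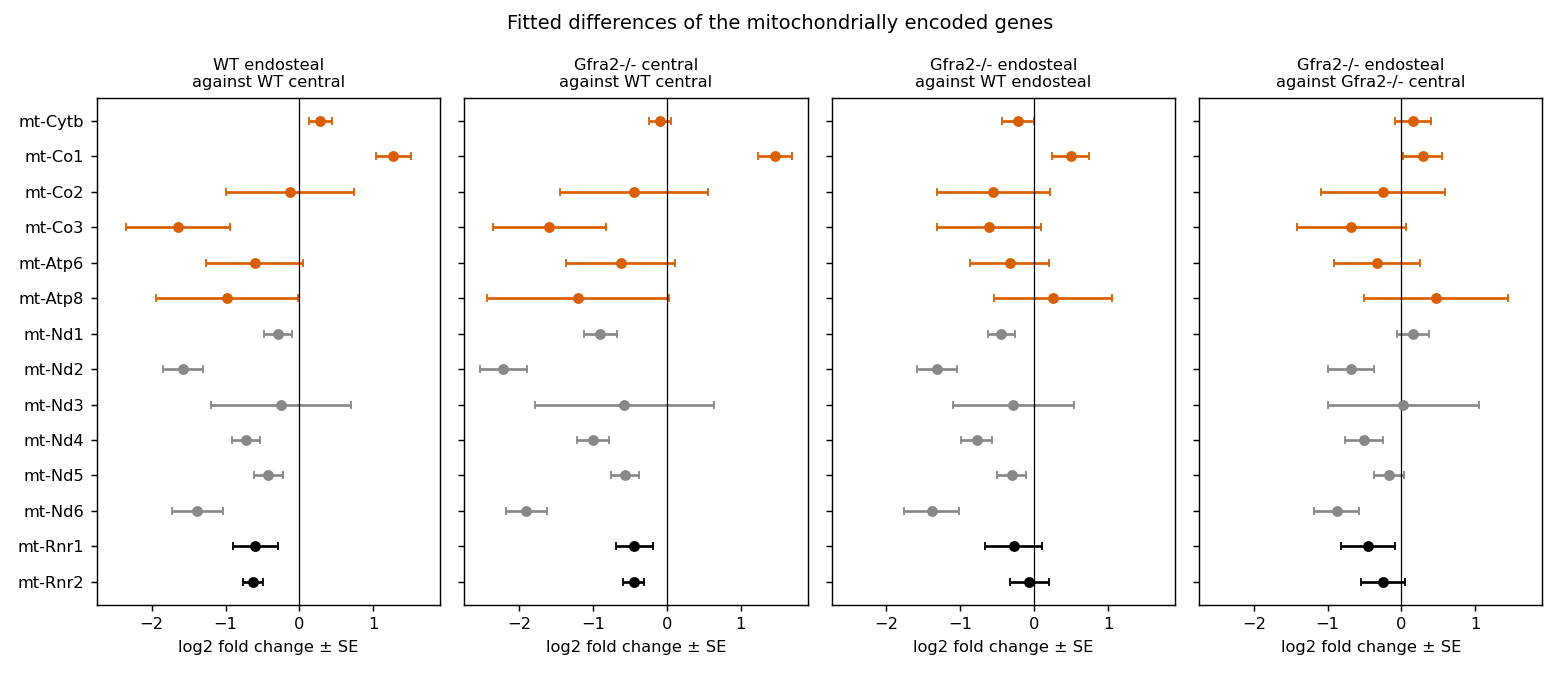
Fitted log2 fold change ± SE (x axis) of the 6 genes (orange), 6 complex I genes (grey) and 2 ribosomal RNAs (black) in 4 comparisons (panels); mt-Nd4l was not tested because of its low counts. In the comparisons with WT central HSCs mt-Co1 lies farthest on the positive side, at 1.27 and 1.47, with mt-Nd2 and mt-Nd6 on the negative side, and the errors of mt-Co2, mt-Co3, mt-Atp6 and mt-Atp8 are the widest together with mt-Nd3.

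Within the mitochondrial mRNA counts, the balance between the 6 genes and the 7 genes of complex I (NADH dehydrogenase) differed between the groups. The 6 genes held 39.6% to 53.3% of the counts on the 13 protein-coding genes in WT endosteal HSCs (47.9% ± 6.0, n = 4). In WT central HSCs they held 19.5% to 33.0% (27.0% ± 5.7, n = 4). They held 54.1% to 67.2% in endosteal libraries (60.03% ± 5.4, n = 4) and 47.4% to 60.1% in central libraries labelled Gfra2-/- (53.7% ± 6.3, n = 3). WT central HSCs were below every other library, and the WT endosteal libraries were below the endosteal ones labelled Gfra2-/-.

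Nearly all of this share came from mt-Co1 and mt-Cytb. The share of mt-Co1 was 15.5% to 25.3% in WT endosteal, 4.39% to 9.28% in WT central, 30.8% to 38.4% in endosteal Gfra2-/- and 22.1% to 34.2% in central Gfra2-/- libraries. The share of mt-Cytb was 23.8% to 28.3%, 14.7% to 23.4%, 23.0% to 28.5% and 23.6% to 25.6% in the same order. The other 4 genes together never exceeded 0.488% of the mitochondrial mRNA counts.

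**Figure D4:**
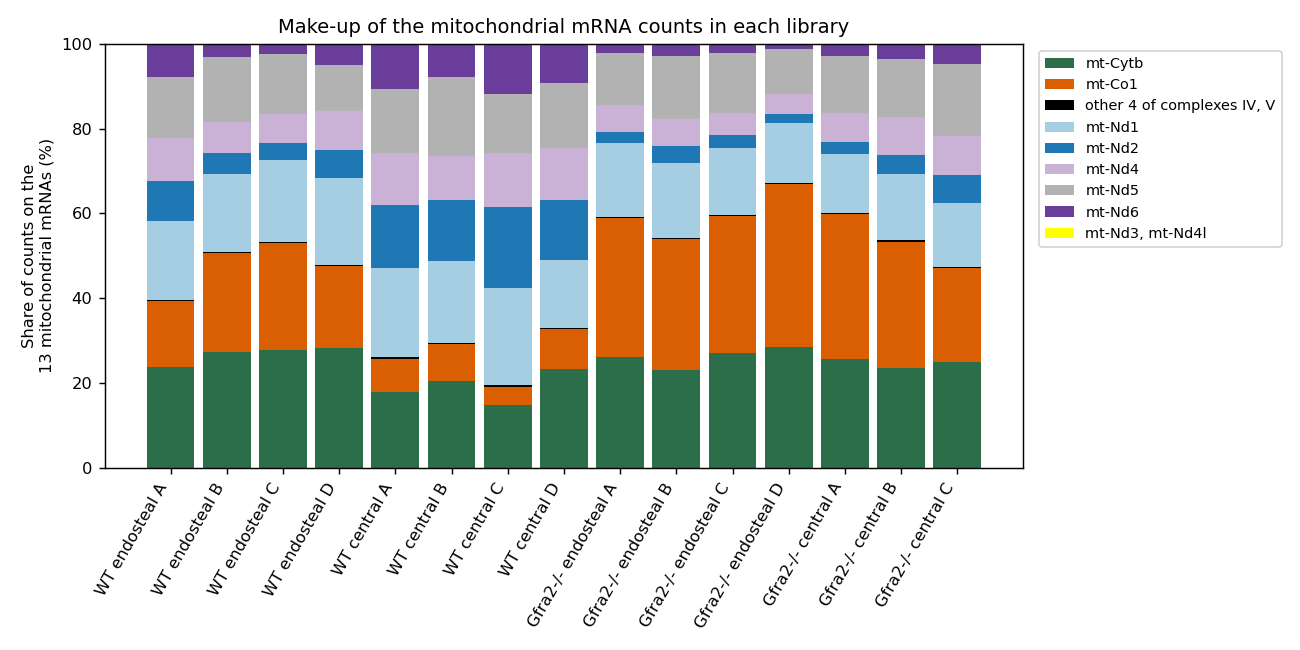
Share of the counts on the 13 mitochondrial protein-coding genes (y axis, %) that fell on each gene in each of the 15 libraries (x axis). The segments add to 100%. The orange mt-Co1 segment spans 4.39% to 9.28% in WT central libraries and 15.5% to 38.4% in all others, while the mt-Nd2 and mt-Nd6 segments at their widest belong to WT central libraries.

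Of the complex I genes, mt-Nd2, mt-Nd4 and mt-Nd6 were high where mt-Co1 was low. The level of mt-Nd2 was 3470 to 6377 CPM in WT central and 1127 to 2506 CPM in WT endosteal HSCs, and 530 to 760 CPM in endosteal and 570 to 1431 CPM in central libraries labelled Gfra2-/-. WT central HSCs again stood apart from all other libraries, here with the highest values. For mt-Nd6, which is transcribed from the opposite strand, the corresponding ranges were 2236 to 3941, 643 to 2045, 279 to 592 and 551 to 992 CPM. Reads were counted without regard to strand, so the mt-Nd6 values may include RNA of the other strand. For mt-Nd4 they were 3010 to 4238, 1898 to 2674, 1002 to 1777 and 1344 to 2250 CPM. The WT compartments overlapped for mt-Nd1, with 3907 to 7661 CPM in central and 4600 to 5538 CPM in endosteal HSCs, and for mt-Nd5, mt-Nd3 and mt-Nd4l.

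The log2 fold change of mt-Nd2 was -1.58 ± 0.27 between the WT compartments and -1.31 ± 0.27 between the endosteal groups (edgeR adjusted p = 0.392). That of mt-Nd6 was -1.38 ± 0.34 and -1.39 ± 0.38 (edgeR adjusted p = 0.645). Between the endosteal groups DESeq2 called both, with adjusted p-values of 0.0099 and 0.0708, beside 1.02% of all genes. Between the central groups mt-Nd2 was at -2.22 ± 0.32 and mt-Nd6 at -1.91 ± 0.28 (edgeR adjusted p = 0.059 for both). Both were among the 6 genes called there, 0.051% of those tested, a count that rested on single libraries. DESeq2 called both there (DESeq2 adjusted p = 4.1e-05 and 0.00011), beside 3.15% of all genes. It also called both between the WT compartments (DESeq2 adjusted p = 0.0018 and 0.029), beside 1.93% of all genes. The ribosomal RNA mt-Rnr2 was lower in WT endosteal than in WT central HSCs by a log2 fold change of -0.63 ± 0.14, and mt-Rnr1 was at -0.60 ± 0.30.

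Over the 15 libraries the log2(CPM + 1) of mt-Co1 correlated with that of mt-Nd2 at a Pearson r of -0.90, with mt-Nd6 at -0.90, with mt-Nd4 at -0.79, with mt-Nd5 at -0.55, with mt-Nd1 at -0.54, with mt-Nd3 at -0.22, with mt-Co3 at -0.85 and with mt-Cytb at 0.39. The points share the group structure and the low depth of the WT central libraries, so these values are descriptions. The 5 genes of 15416 with the pattern most like mt-Co1 were the pseudogenes Gm13456 (r = 0.95), Ccnd3-ps (0.95), Gm15066 (0.95) and Gm7901 (0.94) and the class I histocompatibility gene H2-Q2 (0.94). For mt-Cytb they were Mut, the mitochondrial methylmalonyl-CoA mutase (0.82), Stradb (0.81), the cyclin-dependent kinase gene Cdk7 (0.79), Ikbkg, which encodes the NF-κB regulator NEMO (0.77), and Tmem9 (0.77). The highest r among the other mitochondrial genes was 0.39 for mt-Co1 and for mt-Cytb, that of the pair itself.

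Complexes III, IV and V are completed by subunits encoded in the nucleus, which were counted as 9, 11 and 18 genes. The 18 include Atpif1, the gene of an inhibitor of ATP synthase rather than a subunit, which is counted with the subunits below. Between the endosteal groups, 35 of 38 tested subunits were lower in libraries labelled Gfra2-/-, with a median log2 fold change of -0.66, beside a median of 0.03 over all 12970 genes. None passed the edgeR test at an FDR of 0.1. An unadjusted p below 0.05 was reached by 16, all of them lower, beside 6.69% of all genes, and the groups of 16 did not overlap, beside 6.24% of all genes. DESeq2 called 2 of them, beside 1.02% of all genes.

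By complex, 8 of 9 complex III, 10 of 11 complex IV and 17 of 18 complex V subunits were lower in this comparison, with medians of -0.71, -0.60 and -0.66. The smallest p-values belonged to Atp5j2, a subunit of the membrane part of ATP synthase (55.4 ± 16.9 against 140 ± 30.5 CPM, n = 4 and 4, log2 fold change -1.33 ± 0.34, edgeR adjusted p = 0.601), and Cox5a of complex IV (72.1 ± 22.3 against 155 ± 15.9 CPM, -1.10 ± 0.31, edgeR adjusted p = 0.645). They were followed by Uqcr11 of complex III (58.5 ± 14.8 against 140 ± 51.2 CPM, -1.26 ± 0.37, edgeR adjusted p = 0.667) and Atp5e of complex V (139 ± 28.2 against 357 ± 239 CPM, -1.36 ± 0.41, edgeR adjusted p = 0.675). For Cox8a and Uqcrh, the other genes named by the rule, the log2 fold changes were -0.73 ± 0.24 and -0.86 ± 0.30 (edgeR adjusted p = 0.737 for both). Without the 2 libraries whose Gfra2 counts go against the label, 36 of 38 subunits were lower and 5 had an unadjusted p below 0.05, beside 5% of all genes; among libraries with a spike-in share of at least 0.5% it was 36 and 7, beside 5.2%. With spike-in scaling 37 of 38 were lower and 0 had such a p, beside 2.79% of all genes.

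Between the central groups, 29 of 37 subunits were lower in libraries labelled Gfra2-/- (median -0.48, beside 0.03 over all genes), with 8 lower and 2 higher at an unadjusted p below 0.05, beside 8.73% of all genes. The 2 higher ones were Atp5c1 (1.42 ± 0.48, edgeR adjusted p = 0.399) and Atp5b (0.63 ± 0.24, edgeR adjusted p = 0.487), named here after their values were seen. All 11 complex IV subunits were lower, at a median of -0.57. Atp5e (173 ± 53.3 against 727 ± 293 CPM, n = 3 and 4, log2 fold change -2.10 ± 0.39, edgeR adjusted p = 0.215) and Atp5mpl (-1.63 ± 0.38, edgeR adjusted p = 0.292) had the smallest p-values within complex V, Cox6a1 (-1.54 ± 0.39, edgeR adjusted p = 0.307) and Cox6b1 (-0.82 ± 0.33, edgeR adjusted p = 0.501) within complex IV, and Uqcr10 (-1.33 ± 0.48, edgeR adjusted p = 0.453) and Uqcrq (-1.29 ± 0.52, edgeR adjusted p = 0.507) within complex III. None passed the edgeR test, and DESeq2 called 4, beside 3.15% of all genes. Among libraries with a spike-in share of at least 0.5%, 29 of 38 were lower, at a median of -0.69. There 5 lower and 1 higher had an unadjusted p below 0.05 in edgeR, beside 9.24% of all genes. With spike-in scaling 0 of 37 were lower, because the median of all genes moved to 1.75, and the median subunit, at 1.30, lay below it.

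Between the WT compartments the subunits were split, with 20 of 37 higher and 17 lower in endosteal HSCs and a median of 0.08, and none passed edgeR. An unadjusted p below 0.05 was reached by 5 that were higher and 2 that were lower, beside 7.89% of all genes, and DESeq2 called 1, Atp5c1, beside 1.93% of all genes. Among libraries with a spike-in share of at least 0.5% the split turned, to 16 higher and 21 lower, with a median of -0.07. There 2 higher and 2 lower had such a p, beside 7.22% of all genes. The smallest p-values were those of Atp5c1, the central shaft of ATP synthase, with 323 ± 68.9 CPM in endosteal and 82.8 ± 33.4 CPM in central HSCs (n = 4 each, log2 fold change 1.94 ± 0.39, edgeR adjusted p = 0.225), and Atp5b, its catalytic subunit (0.85 ± 0.27, edgeR adjusted p = 0.465). In complex III they were Cyc1, cytochrome c1 (2.18 ± 0.76, edgeR adjusted p = 0.508), and Uqcrc1 (1.37 ± 0.58, edgeR adjusted p = 0.594), and in complex IV Cox7c (-1.44 ± 0.80, edgeR adjusted p = 0.672) and Cox6a1 (-0.60 ± 0.34, edgeR adjusted p = 0.683). In libraries labelled Gfra2-/-, 16 of 38 subunits were higher and 22 lower in endosteal HSCs, at a median of -0.11. This split turned to 23 higher and 15 lower among libraries with a spike-in share of at least 0.5%, was 19 and 19 without the libraries whose Gfra2 counts go against the label, and was 5 and 33 with spike-in scaling. Atp5b (0.44 ± 0.19, edgeR adjusted p = 0.999) was the only one with an unadjusted p below 0.05, beside 4.79% of all genes. The other genes named by the rule there were Atp5c1 (0.44 ± 0.32), Uqcrc1 (0.62 ± 0.29), Uqcrh (-0.55 ± 0.27), Cox4i1 (-0.28 ± 0.24) and Cox5a (-0.38 ± 0.37), all with an edgeR adjusted p of 0.999.

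**Figure D5:**
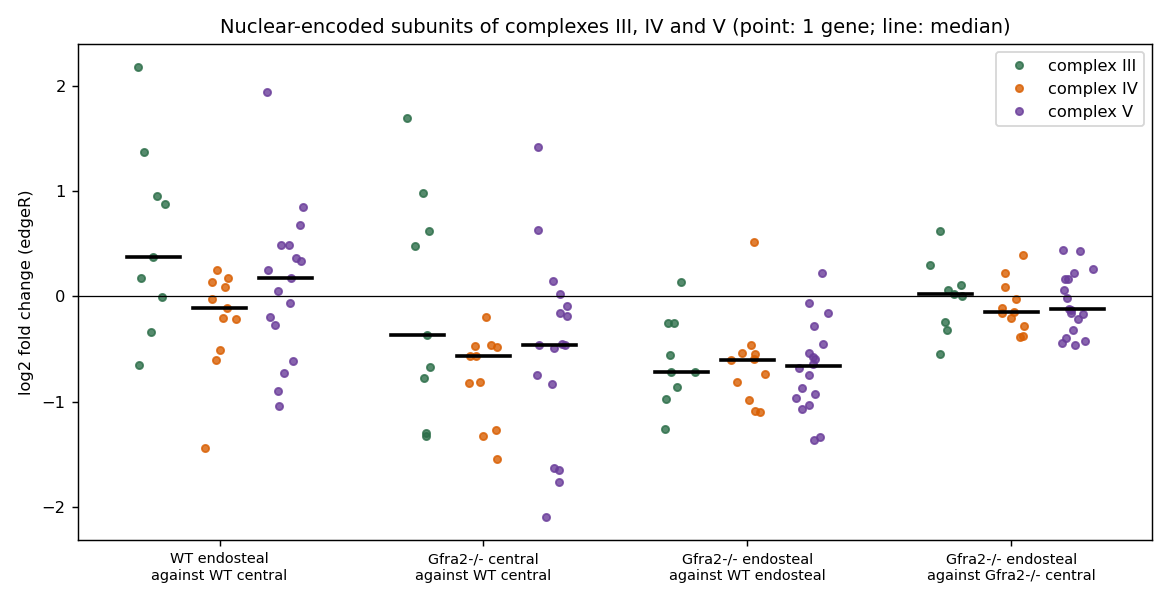
Fitted log2 fold change (y axis) of each nuclear-encoded subunit (point) of complex III, IV or V in 4 comparisons (x axis), with the median of each complex as a line. Between the endosteal groups 35 of 38 points lie below 0 and between the central groups 29 of 37, whereas both comparisons of compartments straddle 0.

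Factors that assemble these complexes showed no common direction between the WT compartments, where 13 of 27 tested were higher and 14 lower. Oxa1l, the insertase that places mitochondrially made proteins in the inner membrane, had the smallest p there, with 110 ± 47.4 CPM in endosteal and 21.9 ± 17.8 CPM in central HSCs (n = 4 each, log2 fold change 2.30 ± 0.73, edgeR adjusted p = 0.481; it was the 1 of 27 called by DESeq2, beside 1.93% of all genes), and Cmc2, a complex IV assembly factor, followed with -1.69 ± 0.64 (edgeR adjusted p = 0.578). The same 2 genes had the smallest p between the central groups, with log2 fold changes of 2.06 ± 0.80 and -1.57 ± 0.66 (edgeR adjusted p = 0.487 and 0.525), in a comparison that shares the WT central libraries; 10 of 27 factors were higher and 17 lower. Between the endosteal groups 9 of 29 were higher and 20 lower, with Cox19 at 2.15 ± 0.89 and Coa3 at -1.004 ± 0.50 (edgeR adjusted p = 0.737 and 0.749), and between the compartments in libraries labelled Gfra2-/- 14 were higher and 15 lower, with Cox17, a copper chaperone, at 1.75 ± 0.84 and Coa6 at 1.44 ± 0.76 (edgeR adjusted p = 0.999 for both).

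Genes that transcribe, process, stabilise or translate mitochondrial RNA were likewise split, and none passed. Lrpprc, whose product binds and stabilises mitochondrial mRNAs, had 69.5 ± 29.3 CPM in WT endosteal and 192 ± 52.6 CPM in WT central HSCs (n = 4 each), a log2 fold change of -1.48 ± 0.44 (edgeR adjusted p = 0.449). In central libraries labelled Gfra2-/- it had 51.6 ± 8.38 CPM (n = 3), a log2 fold change of -1.92 ± 0.45 against WT central HSCs (edgeR adjusted p = 0.292). Its binding partner Slirp had 18.8 ± 6.25 CPM in central libraries labelled Gfra2-/- (n = 3) and 63.3 ± 9.81 CPM in WT central HSCs (n = 4), at -1.77 ± 0.71 (edgeR adjusted p = 0.502). DESeq2 called 1 of 33 genes of this list between the WT compartments, Lrpprc, beside 1.93% of all genes, and 2 of 34 between the central groups, Lrpprc and Slirp, beside 3.15%.

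The other genes of this list named by the rule were Pde12 between the WT compartments (1.84 ± 0.81, edgeR adjusted p = 0.61), Fastkd2 and the mitochondrial RNA polymerase gene Polrmt between the endosteal groups (-1.61 ± 0.52 and -2.04 ± 0.87, edgeR adjusted p = 0.737 for both), and Grsf1 and Mterf4 between the compartments in libraries labelled Gfra2-/- (0.94 ± 0.54 and -2.07 ± 1.20, edgeR adjusted p = 0.999 for both). Of the tested genes of this list, 16 of 33, 22 of 34, 17 of 34 and 18 of 35 were higher between the WT compartments, between the compartments in libraries labelled Gfra2-/-, between the central groups and between the endosteal groups, respectively.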

How the data were processed

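The authors aligned single-end reads of 50 bases to GRCm38 (mm10, Ensembl 81) with GSNAP, leaving out reads with more than 1 path, and counted reads on genes without regard to strand with htseq-count 0.5.3p3. The deposited table holds raw counts, with 46078 gene rows, 92 rows of spike-in RNAs and 5 HTSeq category rows. Of its 16 columns, 15 were placed in groups by the study's own sample lists, since the column names do not repeat the labels; 1 column was not used, and 1 sample labelled Gfra2-/- central is not analysed here. Libraries were made with Smart-seq2, which carries no molecular identifiers, so depth bounds counting error only.

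Symbols and transcripts came from GENCODE M21 (GRCm38). Levels are CPM scaled by TMM over 15 libraries. Comparisons used edgeR 4.0.16 (R 4.3.3): the libraries of the 2 groups, filterByExpr, TMM, the quasi-likelihood test (SE is the fold change divided by the root of F), and Benjamini-Hochberg adjustment over all genes at an FDR of 0.1. The interaction used all libraries. DESeq2 (1.42.0), which the study used for size factors, served as one alternative beside other scalings, filters, thinning and library subsets, and the counts of nuclear subunits under library subsets and spike-in scaling were added after seeing the data. The fit was tested on simulated counts.

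Named genes were the 6 genes, the other mitochondrial genes, the 2 smallest p-values of each nuclear list and comparison, the 5 genes most correlated with mt-Co1 and mt-Cytb, and nuclear genes sharing 50-base windows. The nuclear lists and cell markers were compiled by hand from general knowledge. Members and lists were chosen with earlier results of these data known. Values of some single marker genes are not reported here.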

Additional observations from a re-analysis of the deposited data

Results flagged for a closer look

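In 117 groups of 4 libraries the sample farthest from the rest was compared with the range of its group, and 2 were flagged; chance alone flags about 1 group in 20. The share of mt-Nd2 among the 13 mitochondrial protein-coding genes was 19.1% in WT central library C and 14.2% to 14.8% in the other 3. The level of the mt-Co1 copy Gm11512 was 6.51 CPM in WT endosteal library B and 7.43 to 7.59 CPM in the other 3. No value of the 6 genes was flagged.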

How the results depend on the processing

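No paired analysis was possible because the deposited columns are named without replicate numbers, and column order was not used to pair them. Of the log2 fold changes of the 6 genes under the alternatives, 553 counted as unchanged, 8 kept their direction but moved by more than the spread between libraries and 27 turned. The spread was used only for the WT compartments and the central groups. Elsewhere a value counted as unchanged if its direction and its call at the FDR were kept, so its size could move. In the interaction, mt-Co1 went from -1.001 to -2.45 with spike-in scaling, where the median of all genes moved to -2.18. Of the 27, 14 turned under spike-in scaling, which moved the median of all genes as well. The direction of mt-Co1 did not turn under any alternative run, although between the Gfra2-/- compartments its value ranged from 0.013 to 0.46. The cause of the changes listed here was not tested.

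The number of genes called at an FDR of 0.1, in edgeR 0, 0, 6, 0 and 0 for the WT compartments, the Gfra2-/- compartments, the central groups, the endosteal groups and the interaction, was 216, 156, 371, 132 and 172 with DESeq2. Spike-in scaling gave 15, 2, 6 and 193 for the last 4 of these. For the WT compartments and the central groups, no filter gave 58 and 134 genes, a filter of 10 counts in every library 11 and 30, and thinning 4 and 10. A single fit of all 4 groups gave 22 for the WT compartments and 1 for the endosteal groups. For the central groups it was 0 at an FDR of 0.05, 0 without the 2 shallowest libraries, WT central A and C, and 1 among libraries with a spike-in share of at least 0.5%. Leaving out 1 library gave 0 to 6 genes for the WT compartments (6 without WT endosteal library A) and 0 to 8 for the central groups.

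Spike-in scaling turned mt-Co2 (1.39), mt-Co3 (0.35), mt-Atp6 (1.45) and mt-Atp8 (0.71) between the WT compartments, and mt-Cytb (1.51), mt-Co2 (1.33), mt-Co3 (0.61), mt-Atp6 (1.42) and mt-Atp8 (0.39) between the central groups, where the median of all genes moved as well. It also turned mt-Cytb between the Gfra2-/- compartments (-0.14), mt-Atp8 between the endosteal groups (-0.030), and mt-Co3 (-1.55), mt-Atp6 (-2.05) and mt-Atp8 (-0.40) in the interaction. There the median of all genes moved to -0.46, -0.28 and -2.18, respectively. Relative to the median of all genes, each gene named here for this scaling kept its sign. Without the libraries whose Gfra2 counts go against the label, mt-Co2 turned between the Gfra2-/- compartments (0.074) and in the interaction (0.14). In the interaction, mt-Co2 also turned with DESeq2 (0.010), its size factors (0.011) and thinning (0.66), mt-Cytb with thinning (0.0040) and mt-Atp6 without the 2 shallowest libraries (-0.13). Between the central groups mt-Cytb turned with 10 counts in every library (0.055). Leaving out 1 library gave -0.26 to 0.025 for mt-Co2 between the WT compartments, -0.51 to 0.022 for mt-Atp6 between the Gfra2-/- compartments, -0.00028 to 0.61 for mt-Atp8 between the endosteal groups, and -0.29 to 0.0080 for mt-Co2 and -0.26 to 0.037 for mt-Cytb in the interaction.

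With spike-in scaling, 0 nuclear subunits were lower between the WT compartments and 0 between the central groups, against 17 and 29. The counts of mt-Co2, mt-Co3, mt-Atp6 and mt-Atp8 limit what these libraries can show of them.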
